A study of Homo sapiens with 4 samples.

Results

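SR and hnRNP proteins and the factors that recognise the branch point and the 3′ splice site were examined in LNCaP, a human prostate cancer line that responds to androgen, after transfection with the microRNA miR-31 or with the control microRNA miR-NC. Members were the array probes that the platform annotation assigns to a single symbol beginning with SRSF or HNRNP, or to U2AF1, U2AF2, TRA2A, TRA2B, PTBP1, PTBP2, SF1, SF3A1 to SF3A3 or SF3B1 to SF3B4, with pseudogenes left out. There were 90 such probes of 47231 on the array, for 50 of the 20046 genes so named, and 6 probes of 4 pseudogenes were set aside. A probe was tested where it was detected on at least 2 of the 4 arrays, which held for 76 member probes of 47 genes and for 18354 probes in all. SF3A1, SRSF12 and HNRNPCL1 had no tested probe.

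Both groups were LNCaP cells grown in serum-containing medium and transfected for 48 h with 50 nM of either RNA, so the control cells were transfected too. Each group had 2 arrays, numbered as repeats. No label ties the repeats to separate cultures, and p-values then reflect variation among these samples alone, possibly technical. The comparison shows how the messenger RNAs of splicing factors differed between cells given miR-31 and cells given miR-NC.

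SR proteins bind exons through RNA recognition motifs and, through their arginine-serine tails, help the splicing machinery to find the neighbouring splice sites. Many hnRNPs coat nascent transcripts and hold exons out, so the balance of both families shifts alternative splicing. SF1 binds the branch point, U2AF2 the polypyrimidine tract and U2AF1 the terminal AG of the intron, after which the SF3A and SF3B complexes anchor the U2 particle. In prostate cancer some of these proteins are known for their part in making androgen receptor splice variants.

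The labels give the transfected RNA as miR-31 without its arm. The mature RNA that RefSeq lists for the MIR31 gene (GRCh38.p14, chr9:21512158-21512178, minus strand) is shown because it is the RNA that separates the groups, with its seed, bases 2 to 8, in capitals.
hsa-miR-31-5p: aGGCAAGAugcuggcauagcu
A transcript that pairs with this seed holds the complement UCUUGCC. Transcript sequences were not used here, so no member was searched for such a site.

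Of the 4 arrays, between 34.6% and 40.7% of all probes were detected, and between 72 and 77 of the 90 member probes. Pearson's r across all probes, which are not independent replicates, was 0.987 within either group, and ranged from 0.974 to 0.984 between groups. No 2 arrays held the same values, with 78 to 149 probes of equal signal in any pair. Of 9 markers of luminal prostate cells, 7 had a probe named here, and 6 of those (FOLH1, HOXB13, KLK2, KLK3, KRT8 and TMPRSS2) were detected on all 4 arrays. KRT18, the other, was detected on 1. Of 6 markers of basal cells and fibroblasts, 5 had a probe. KRT5, KRT14 and COL1A2 were detected on no array, COL1A1 on 1, and VIM on all 4. Some markers moved with the groups. TMPRSS2, an androgen-induced protease, was lower in miR-31 cells (log2 change −0.72; adjusted p = 0.0191), KLK2 had −0.71 without passing (adjusted p = 0.114), and 6 of the 7 tested luminal probes had negative values. Both VIM probes had positive values, 0.46 and 0.31, without passing. The summed normalized signal of the luminal list was 15370 and 12690 in miR-NC against 10688 and 11975 in miR-31. It rested mainly on the bright probes of FOLH1 and TMPRSS2, and both FOLH1 probes overlapped between groups. The sum of the other list was 762 and 727 against 965 and 933. VIM was its only gene detected on all 4 arrays, and the rest of that sum came from probes detected on at most 1 array. The part of these markers in the results was not tested.

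Of the member probes that passed the threshold, 6 were those of hnRNPs, a family that held 46 of the 76 tested member probes. In limma, with p-values adjusted over all tested probes, 7 of the 76 tested member probes were lower in miR-31 cells (9.21%), against 4.07% of all tested probes. They belonged to HNRNPAB, HNRNPD, HNRNPA2B1 and PTBP1. A single member probe, of SF1, was higher (1.32%), against 2.10% of all tested probes. Its miR-NC signal lay at or near background, and it met the filter through the miR-31 arrays alone. In both directions together 10.5% of the member probes passed the threshold, against 6.17% of all. The other 68 did not pass, and no SR protein, TRA2, SF3A or SF3B probe did. Counted by the brightest tested probe of each gene, 4 of 47 member genes were lower (8.51%), against 5.24% of 10754 genes, and 1 was higher (2.13%), against 2.43%. In bulk RNA a fall in every cell cannot be told apart from a loss of the transcript in some cells.

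The median log2 change of the 76 member probes was −0.15, with 47 negative and 29 positive values, against −0.01 and 50.8% negative over all tested probes. In 34 member probes (44.7%) both miR-31 arrays lay below both miR-NC arrays, against 27.6% of all tested probes. In 13 (17.1%) both lay above, against 24.0%. Groups did not overlap in either direction for 51.5% of all tested probes. The smallest two-sided p of an exact permutation test over these 4 arrays is 0.333, and calls therefore rest on limma's variance, which is moderated across probes. All 8 calls were lost with arrays aligned on their medians in place of quantile normalization (smallest adjusted p among members 0.0688), without miR-31 replicate 1 (0.0895) and without miR-31 replicate 2 (0.0985). Without either miR-31 array the loss was not particular to the members, since no tested probe on the array passed in limma. Without an intensity trend in the variance only the SF1 probe passed (adjusted p = 0.0378). That probe lay at or near background in miR-NC, and the miR-31 arrays alone met the filter for it.

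**Figure D1:**
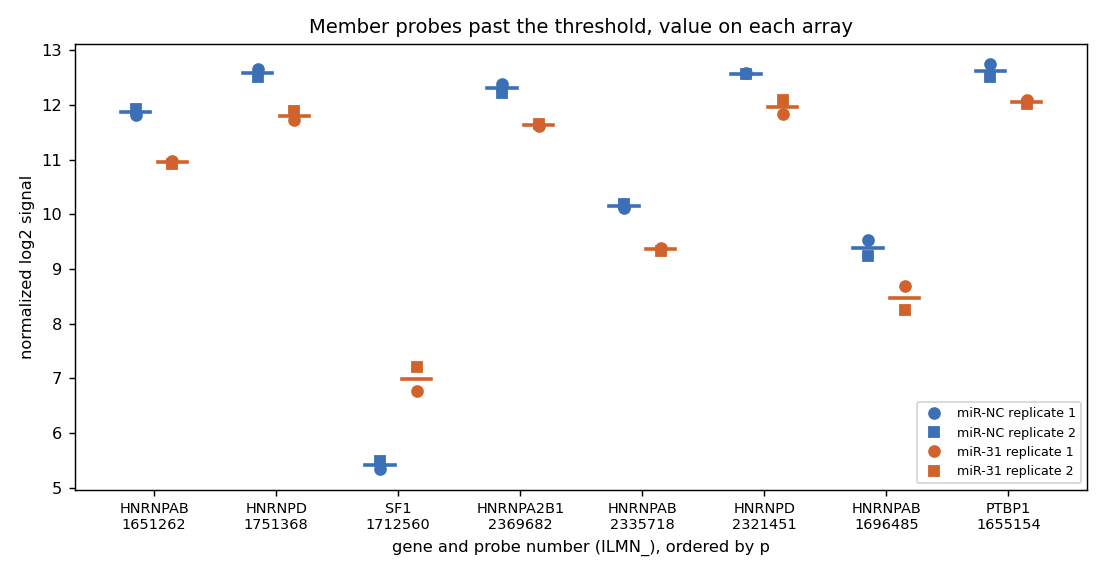
Normalized log2 signal (vertical axis) of the 8 member probes past the threshold, by gene and probe number, on each of the 4 arrays. Circles are replicate 1, squares replicate 2, and short lines the group means of 2 arrays. In the 7 lower probes both miR-31 arrays lie below both miR-NC arrays, and in the SF1 probe both lie above.

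HNRNPAB, an A/B-type hnRNP that binds single-stranded RNA and DNA, had the largest fall of the members, and all 3 of its probes were lower. Its brightest probe, ILMN_1651262, had log2 signals of 11.81 and 11.92 on miR-NC replicates 1 and 2, and of 10.97 and 10.92 on miR-31 replicates 1 and 2. The groups were separated by more than the replicates of either. This was a 1.89-fold fall (log2 change −0.92 ± 0.13, SE; limma adjusted p = 0.00720). The second probe, ILMN_2335718, read 10.11 and 10.19 in miR-NC against 9.39 and 9.33 in miR-31, a 1.73-fold fall (−0.79 ± 0.16, SE; adjusted p = 0.0217). The last, ILMN_1696485, read 9.53 and 9.24 in miR-NC against 8.69 and 8.26 in miR-31, a 1.88-fold fall (−0.91 ± 0.21, SE; adjusted p = 0.0391). Replicates of this probe lay farther apart in both groups, and it lost its call without miR-NC replicate 1 (−0.77, adjusted p = 0.121), with no filter on dim probes (adjusted p = 0.0686) and with the authors' normalized values (−0.89, adjusted p = 0.0558).

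HNRNPD encodes AUF1, which binds AU-rich elements and speeds the decay of many short-lived messenger RNAs. Its probe ILMN_1751368 had log2 signals of 12.66 and 12.52 in miR-NC against 11.72 and 11.89 in miR-31. Both miR-31 arrays were low, and the groups did not overlap. The fall was 1.72-fold (log2 change −0.79 ± 0.13, SE; adjusted p = 0.0121). Probe ILMN_2321451 read 12.58 and 12.57 in miR-NC against 11.83 and 12.10 in miR-31, a 1.53-fold fall (−0.61 ± 0.14, SE; adjusted p = 0.0360). That second probe lost its call with cyclic loess normalization (adjusted p = 0.0646) and without miR-NC replicate 1 (adjusted p = 0.0508). HNRNPDL, the paralog of HNRNPD, did not pass at either of its probes, with log2 changes of −0.39 ± 0.15 (SE; adjusted p = 0.155) and −0.17 ± 0.29 (adjusted p = 0.790).

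HNRNPA2B1, a core hnRNP that also carries messenger RNAs through the cytoplasm, was lower at its brightest probe only. That probe, ILMN_2369682, had log2 signals of 12.38 and 12.22 in miR-NC against 11.62 and 11.66 in miR-31. The miR-31 arrays nearly coincided, well below both controls, a 1.58-fold fall (log2 change −0.66 ± 0.13, SE; adjusted p = 0.0210). The call was lost without miR-NC replicate 1 (−0.59, adjusted p = 0.0583). The other 3 tested probes of the gene had positive values. ILMN_3178792 read 10.24 and 10.00 in miR-NC against 10.25 and 10.43 in miR-31 (0.22 ± 0.16, SE; adjusted p = 0.482). ILMN_1886493 read 8.33 and 8.82 against 8.59 and 9.06 (0.25 ± 0.24; adjusted p = 0.611), and ILMN_3273854 read 7.88 and 8.18 against 8.38 and 8.12 (0.22 ± 0.22; adjusted p = 0.614). The replicates of the last 2 overlap between groups, and the groups of ILMN_3178792 were barely apart. No direction can be given for any of these 3 probes. Taken as the mean of its 4 probes, HNRNPA2B1 had 0.01 ± 0.16 and did not pass (adjusted p = 0.987), whereas HNRNPAB and HNRNPD still did.

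PTBP1, the polypyrimidine tract binding protein, represses exons whose flanking introns hold pyrimidine-rich tracts. Its 1 probe had log2 signals of 12.74 and 12.51 in miR-NC against 12.09 and 12.01 in miR-31. Both miR-31 arrays lay below both controls, a 1.50-fold fall (log2 change −0.58 ± 0.14, SE; adjusted p = 0.0392). The PTBP1 call was lost with cyclic loess (adjusted p = 0.0582), with no filter (adjusted p = 0.0533) and without miR-NC replicate 1 (−0.47, adjusted p = 0.136). PTBP2, the paralog that replaces PTBP1 in neurons, had 2 tested probes. One read 8.19 and 8.14 in miR-NC against 7.40 and 8.04 in miR-31 (−0.44 ± 0.25, SE; adjusted p = 0.344), where miR-31 replicate 1 alone was clearly low. The other read 7.43 and 7.42 against 7.08 and 7.17 (−0.30 ± 0.23; adjusted p = 0.495).

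RefSeq promoters of the 4 genes with lower probes (GRCh38.p14, 250 bases before to 50 after a start) are shown because the called falls belong to them. Capitals mark the CCAAT box (CCAAT, or ATTGG on the other strand) and any of 4 words of the E2F site (TTTCCCGC, TTTCGCGC, TTTGCCGC or TTTGGCGC, either strand). The 2 motifs were chosen after the values of these genes were seen. PTBP1 has 2 starts in the table.
HNRNPAB, chr5:178204283-178204582, plus strand: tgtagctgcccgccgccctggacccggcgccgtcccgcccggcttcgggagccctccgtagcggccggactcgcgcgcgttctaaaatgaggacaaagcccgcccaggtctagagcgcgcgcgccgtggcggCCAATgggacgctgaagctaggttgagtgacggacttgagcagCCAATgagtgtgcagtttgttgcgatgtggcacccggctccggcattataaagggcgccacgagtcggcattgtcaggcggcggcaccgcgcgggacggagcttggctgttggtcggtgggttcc
HNRNPD, chr4:82373942-82374241, minus strand: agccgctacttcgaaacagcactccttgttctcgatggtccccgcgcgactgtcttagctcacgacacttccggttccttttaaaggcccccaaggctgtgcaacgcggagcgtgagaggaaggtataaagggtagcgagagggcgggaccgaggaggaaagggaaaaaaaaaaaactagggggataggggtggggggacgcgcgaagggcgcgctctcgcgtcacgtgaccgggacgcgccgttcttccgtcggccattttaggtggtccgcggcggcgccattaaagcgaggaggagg
HNRNPA2B1, chr7:26200697-26200996, minus strand: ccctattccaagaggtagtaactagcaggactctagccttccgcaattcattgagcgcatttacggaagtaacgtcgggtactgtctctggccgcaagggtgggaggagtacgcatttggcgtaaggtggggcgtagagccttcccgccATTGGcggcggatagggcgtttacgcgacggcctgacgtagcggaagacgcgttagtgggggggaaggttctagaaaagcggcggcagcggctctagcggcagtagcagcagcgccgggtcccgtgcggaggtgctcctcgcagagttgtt
PTBP1, chr19:797202-797501, plus strand: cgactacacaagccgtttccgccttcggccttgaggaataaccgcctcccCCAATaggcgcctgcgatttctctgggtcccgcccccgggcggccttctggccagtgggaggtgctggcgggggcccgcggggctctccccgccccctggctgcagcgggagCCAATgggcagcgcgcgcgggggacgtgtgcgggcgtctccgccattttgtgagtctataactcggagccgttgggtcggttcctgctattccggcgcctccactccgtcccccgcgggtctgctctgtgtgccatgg
PTBP1, chr19:797734-798033, plus strand: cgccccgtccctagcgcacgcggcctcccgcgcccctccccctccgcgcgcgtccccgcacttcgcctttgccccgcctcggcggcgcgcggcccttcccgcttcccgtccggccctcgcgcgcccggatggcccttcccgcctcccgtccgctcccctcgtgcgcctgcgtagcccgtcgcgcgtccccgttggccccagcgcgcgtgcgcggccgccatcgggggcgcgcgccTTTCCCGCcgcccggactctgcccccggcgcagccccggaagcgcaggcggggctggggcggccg
HNRNPAB held 2 CCAAT boxes, the upstream start of PTBP1 held 2 and HNRNPA2B1 held 1. An E2F word was found at the downstream PTBP1 start, 15 bases before it. HNRNPD held neither motif in this window. A CCAAT box was found in 34.6% of all 35116 promoters and in 42.6% of the 61 promoters of member genes. An E2F word was found in 3.31% and 14.8%, and in 1 of the 5 promoters shown. The 61 promoters belong to 45 member genes. The full set belongs to 27305 genes, taken without regard to expression in these cells, so the sets are unlike. The part of these motifs in the changes was not tested. These shares describe letters in the windows and no binding was measured.

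The hnRNP family as a whole, with HNRNPAB, HNRNPD and HNRNPA2B1 included, was mixed. Over its 46 tested probes the median log2 change was −0.16, with 27 negative and 19 positive values, 6 lower by the test and 0 higher (12 lower and 0 higher at an unadjusted p under 0.05 in limma). The 6 are 13.0% of the hnRNP probes, against 4.07% of all tested probes. At the unadjusted p 2198 of all 18354 tested probes were lower and 1865 higher. The 15 probes of the A/B-type and D-type genes (HNRNPA0, HNRNPA1, HNRNPA2B1, HNRNPA3, HNRNPAB, HNRNPD and HNRNPDL), grouped after the values were seen, held all 6 and had a median of −0.39. HNRNPA0, which binds AU-rich elements, came closest among the others to the threshold. It read 11.32 and 11.33 in miR-NC against 10.53 and 10.98 in miR-31, with both miR-31 arrays low but unequally so (−0.57 ± 0.17, SE; adjusted p = 0.0884).

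HNRNPA1, a general exon silencer, could not be given a direction. Its probe ILMN_1663447 read 6.27 and 7.83 on the miR-NC arrays and 7.10 and 7.75 on the miR-31 arrays, so the controls alone spanned more than the groups differed (0.38 ± 0.46, SE; adjusted p = 0.697). Without miR-NC replicate 2, the higher control, it passed as higher (1.16, adjusted p = 0.0315), and without miR-NC replicate 1 its sign turned (−0.40, adjusted p = 0.639). The second HNRNPA1 probe had a negative value (−0.23 ± 0.23; adjusted p = 0.614). HNRNPA1 has many near-identical copies, and HNRNPA1L2, one of them, had values of −0.31 and −0.27 at its tested probes. Which copy these probes read is uncertain. The same holds for HNRNPCL2 and HNRNPCL3, copies of HNRNPC, with values of −0.27 and −0.48, while HNRNPC itself, which binds uridine tracts, had −0.10 and 0.22.

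The G-run binding hnRNPs differed among themselves in sign. HNRNPF read 8.46 and 8.13 in miR-NC against 7.40 and 7.78 in miR-31 (log2 change −0.71 ± 0.24, SE; adjusted p = 0.117). All 6 tested probes of HNRNPH1, HNRNPH2 and HNRNPH3 had positive values, from 0.04 to 0.36. The HNRNPH3 probe ILMN_1654920 read 8.88 and 9.13 in miR-NC against 9.21 and 9.52 in miR-31 (0.36 ± 0.19; adjusted p = 0.305), with its groups barely apart. None of these 7 probes passed.

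Other hnRNPs did not pass the threshold, with values from −0.55 to 0.54. HNRNPM, which binds GU-rich sequence, was negative at all 3 probes, from −0.34 to −0.22. HNRNPR, a relative of SYNCRIP, was negative at all 3, from −0.43 to −0.14, and its probe ILMN_3177285 passed without miR-NC replicate 2 (−0.63, adjusted p = 0.0311). HNRNPUL2, an HNRNPU-like protein, had −0.55 ± 0.20 (SE; adjusted p = 0.140). HNRNPUL2 passed with the replicate block (adjusted p = 0.0400) and without miR-NC replicate 2 (−0.73, adjusted p = 0.0398). HNRNPK, the poly(C)-binding member, had 4 tested probes from −0.08 to 0.54. HNRNPU, a scaffold of the nuclear matrix, had −0.07 and 0.35, and HNRNPUL1 ranged from −0.23 to 0.37. HNRNPL, which binds CA repeats, had 0.08 ± 0.14, and its paralog HNRNPLL 0.38 ± 0.20 (adjusted p = 0.310). HNRNPA3 had 0.39 ± 0.27 (adjusted p = 0.452).

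**Figure D2:**
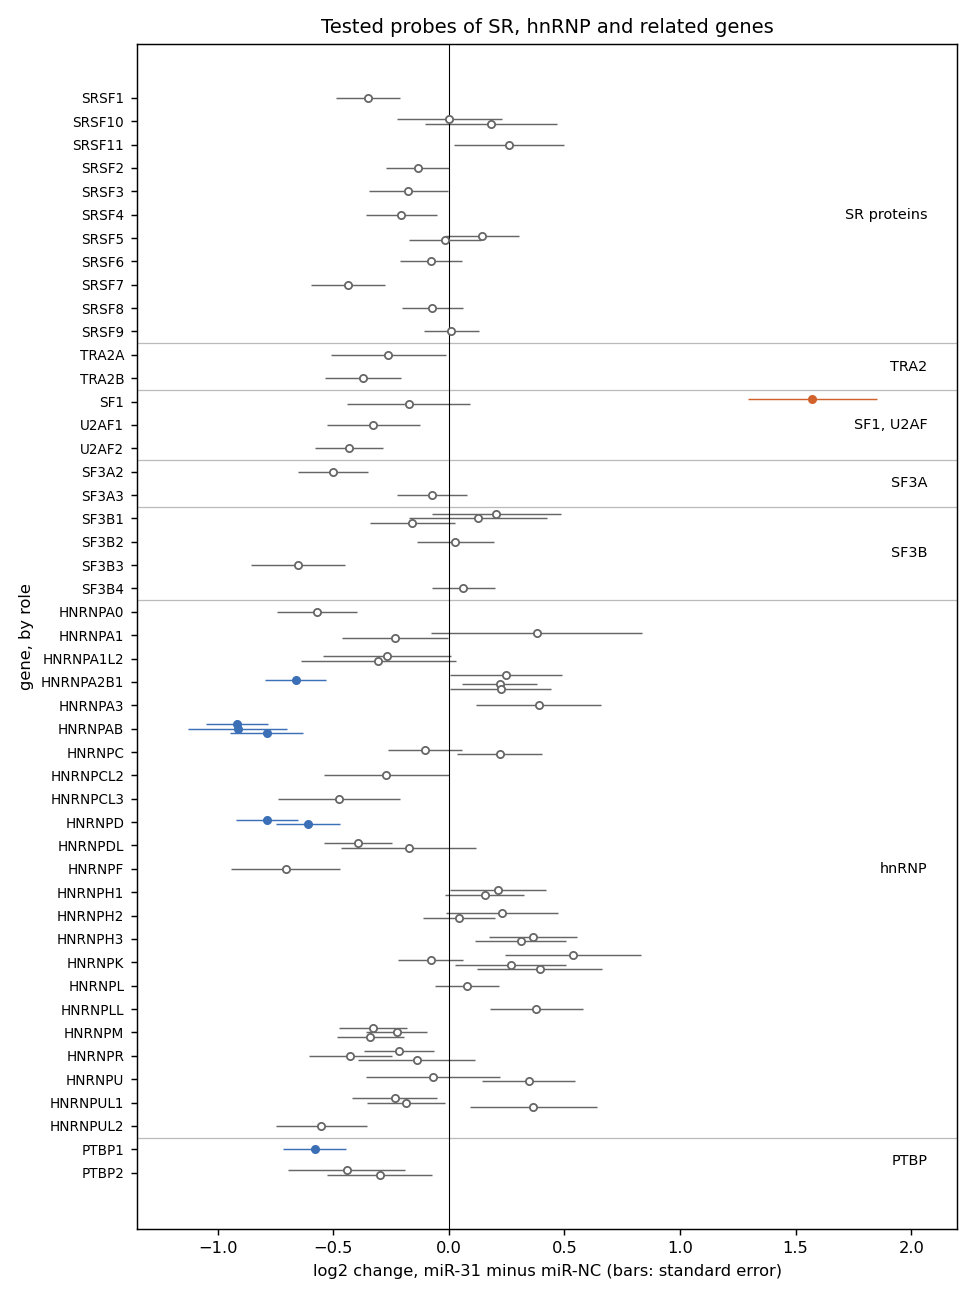
Log2 change of each tested member probe, miR-31 minus miR-NC (horizontal axis, bars are standard errors), by gene and role. Blue filled points passed the threshold as lower, the orange filled point as higher, and open points did not pass. The 13 SR protein probes lie between −0.44 and 0.26, while the hnRNP probes reach from −0.92 to 0.54.

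No SR protein probe passed the threshold. The 13 tested probes of 11 SRSF genes had a median log2 change of −0.07 and a range from −0.44 to 0.26, with 0 higher and 0 lower in limma (2 lower and 0 higher at an unadjusted p under 0.05). With 6.17% of all tested probes called, a count of 0 in 13 does not set them apart. The 2 lower probes are 15.4% of the SR probes, against 2198 of all 18354 tested probes lower at that unadjusted p. The smallest p belonged to SRSF7, an exon activator that also acts in messenger RNA export. It read 10.08 and 10.03 in miR-NC against 9.54 and 9.70 in miR-31, with no overlap of the groups (−0.44 ± 0.16, SE; adjusted p = 0.147). SRSF1, the founding exon-enhancer binding member, read 11.61 and 11.67 in miR-NC against 11.19 and 11.38 in miR-31 (−0.35 ± 0.14; adjusted p = 0.180).

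Values of the other SR genes were small. SRSF9, an SRSF1 relative, read 12.95 and 12.91 in miR-NC against 12.97 and 12.90 in miR-31 (0.01 ± 0.12, SE; adjusted p = 0.977). SRSF2 had −0.13 ± 0.14, SRSF6 −0.08 ± 0.13 and SRSF8 −0.07 ± 0.13. SRSF3, the shortest family member, had −0.17 ± 0.17, and SRSF4 had −0.21 ± 0.15. SRSF5 had 0.14 and −0.02 at its probes, SRSF10, which represses splicing when dephosphorylated, had 0.00 and 0.18, and SRSF11 had 0.26 ± 0.24. The standard errors leave changes of this size undetectable with 2 arrays a group. TRA2A and TRA2B, SR-like proteins that bind GAA-rich enhancers, were both negative without passing. TRA2B read 10.58 and 10.87 in miR-NC against 10.25 and 10.45 in miR-31 (−0.37 ± 0.16; adjusted p = 0.224), and TRA2A had −0.26 ± 0.25 (adjusted p = 0.597).

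SF1, the branch point binding protein, had the only higher probe among the members. ILMN_1712560 had log2 signals of 5.34 and 5.48 in miR-NC against 6.77 and 7.20 in miR-31. It was dim, with signals before normalization of 100.9 and 99.1 in miR-NC against 136.6 and 207.5 in miR-31, and it was detected on 1 of the 2 miR-NC arrays and on both miR-31 arrays. Both miR-31 arrays were high (log2 change 1.57 ± 0.28, SE; adjusted p = 0.0137). The detection p of the controls was 0.0883 and 0.0481, so their signal lay at or near background and no firm fold can be given. The miR-31 arrays alone met the filter of 2 detected arrays, so a probe such as this was tested because it was high there. The size depended on the processing, from 0.84 with no background correction to 2.27 with the authors' values, and the stricter filter, detection p under 0.01 on all 4 arrays, left the probe untested.

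A second SF1 probe, ILMN_1776077, did not rise. It read 6.33 and 6.09 in miR-NC against 6.05 and 6.02 in miR-31 (−0.17 ± 0.27, SE; adjusted p = 0.768), and 1 more probe was detected on no array. The annotation ties the higher probe to transcript NM_004630 and the others to NM_201997. The difference between the changes of the 2 tested probes was 1.75 ± 0.28 (SE), which did not pass when adjusted over all probe pairs (limma adjusted p = 0.421), and it carries the same limit of a control signal near background. Averaged over both tested probes, SF1 had 0.70 ± 0.26 and did not pass (adjusted p = 0.113).

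The U2AF subunits were both negative and did not pass. U2AF2 read 10.94 and 10.90 in miR-NC against 10.59 and 10.39 in miR-31, with both miR-31 arrays low (−0.43 ± 0.15, SE; adjusted p = 0.124). U2AF1 read 9.24 and 8.89 against 8.86 and 8.62 (−0.33 ± 0.20; adjusted p = 0.380), with the groups nearly touching.

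In the U2 particle, SF3A2 and SF3B3 had the smallest p of the SF3A and SF3B subunits. SF3A2 read 10.91 and 10.70 in miR-NC against 10.33 and 10.27 in miR-31 (−0.50 ± 0.15, SE; adjusted p = 0.0880). SF3B3 read 9.53 and 9.11 in miR-NC against 8.76 and 8.57 in miR-31 (−0.65 ± 0.20; adjusted p = 0.0956). Neither overlapped between groups. With the replicate block both passed (adjusted p = 0.0419 and 0.0275), as they did without miR-NC replicate 2 (0.0499 and 0.0234). SF3B1, the subunit that clamps the branch helix, had 3 probes from −0.16 to 0.21. SF3A3 had −0.07 ± 0.15, SF3B2 0.03 ± 0.17 and SF3B4 0.06 ± 0.14. Over the 6 SF3B probes the median was 0.04.

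Probes of the same gene were compared directly, since they can read different transcripts. Of the member genes, 20 had more than 1 tested probe. All values were negative in 7 of them, all positive in 4 and of both signs in 9. Counted by pairs of probes, 15 of 40 member pairs (37.5%) had opposite signs, against 30.5% of 3801 pairs over all genes. None of the 40 pairs of member probes differed at the adjusted threshold in limma, where 0% of 3801 pairs over all genes did. At an unadjusted p under 0.05 there were 5 member pairs (12.5%) and 333 pairs over all genes (8.76%). The member pairs were the SF1 pair, the 3 pairs of the lower HNRNPA2B1 probe with its other probes (differences of −0.88 to −0.91), and 1 HNRNPK pair (−0.61).

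Negative values took a larger share of the brighter probes, at a dividing value chosen after the data were seen. Of 29 member probes with a mean log2 signal of 10 or more, 24 had negative values, the median was −0.23 and 5 (17.2%) were lower. Over the 3521 tested probes in that range 49.0% were negative, the median was 0.00 and 5.25% were lower. Of the 47 member probes below 10, 23 were negative, the median was 0.00 and 2 (4.26%) were lower, against 51.2%, −0.01 and 3.79% of the tested probes there. The part of signal level in these values was not tested.

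**Figure D3:**
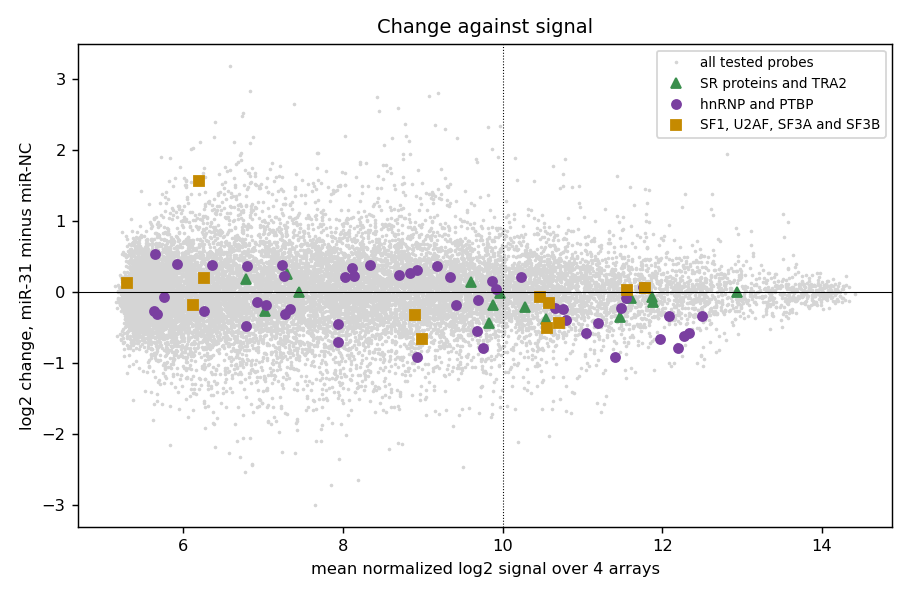
Log2 change, miR-31 minus miR-NC (vertical axis), against the mean normalized log2 signal over the 4 arrays (horizontal axis) for all 18354 tested probes (grey) and the 76 member probes by role. To the right of the dotted line at 10, 24 of the 29 member probes lie below 0.

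At the adjusted threshold, spliceosome components other than the members were called at a share near that of the whole array. Of 72 listed spliceosome components, 65 genes were tested with 88 probes, of which 3 were lower and 3 higher, with a median log2 change of 0.02. This is 3.41% in each direction and 6.82% in all, against 4.07% lower, 2.10% higher and 6.17% in all over the array. SNRNP27, a U4/U6.U5 particle protein, was lower at both probes. The first read 9.64 and 9.40 in miR-NC against 7.85 and 7.90 in miR-31, a 3.12-fold fall (−1.64 ± 0.19, SE; adjusted p = 0.00325), and the second fell 1.96-fold (−0.97 ± 0.18; adjusted p = 0.0142). EFTUD2, the GTPase of the U5 particle, read 10.57 and 10.81 against 9.71 and 9.68, a 1.99-fold fall (−0.99 ± 0.16; adjusted p = 0.00971).

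Higher spliceosome probes were those of DDX23, the helicase PRP28 (log2 change 0.91 ± 0.21, SE; adjusted p = 0.0361), BUD31 (0.50 ± 0.12; adjusted p = 0.0473) and SNRPC, the U1-C protein. SNRPC read 7.53 and 8.90 in miR-NC against 9.67 and 9.85 in miR-31 at the probe that passed (1.54 ± 0.37; adjusted p = 0.0419). Its controls lay far apart, and its second probe had 0.17 and did not pass (adjusted p = 0.563).

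Among 68 other splicing regulators and kinases, 61 genes were tested with 108 probes, with a median of −0.09. At the adjusted threshold 1 probe was lower and 1 higher (1.85% in all, against 6.17% of all tested probes). At an unadjusted p under 0.05 in limma 22 (20.4%) were lower and 10 higher. Over all 18354 tested probes 2198 were lower and 1865 higher at that p. In 33.3% of the 108 both miR-31 arrays lay below both miR-NC arrays, against 27.6% of all tested probes. In 23.1% both lay above, against 24.0%. NONO, a paraspeckle protein, fell 1.42-fold (−0.50 ± 0.12, SE; adjusted p = 0.0467), and its other tested probe had −0.70 without passing (adjusted p = 0.0868). RBM4, which opposes PTBP1 at some exons, was higher at 1 of 4 tested probes. That probe read 8.12 and 8.89 in miR-NC against 9.42 and 10.10 in miR-31 (1.26 ± 0.29; adjusted p = 0.0398), and replicate 2 was above replicate 1 in both groups. Of its other probes, 2 had 2.12 and 1.04 without passing and 1 had −0.09. SRPK1, a kinase that phosphorylates SR proteins, read 9.23 and 9.27 against 8.28 and 8.68 and did not pass (−0.77 ± 0.20; adjusted p = 0.0544), although it did with the replicate block (adjusted p = 0.0130) and with the stricter filter (adjusted p = 0.0429). With arrays aligned on their medians all 8 of these calls were lost. The RBM4 probe with 2.12 passed there (2.15, adjusted p = 0.00192), but it was detected on 1 of the 2 miR-NC arrays, met the filter through the miR-31 arrays, and ranged from 1.19 to 3.05 when an array was left out.

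**Figure D4:**
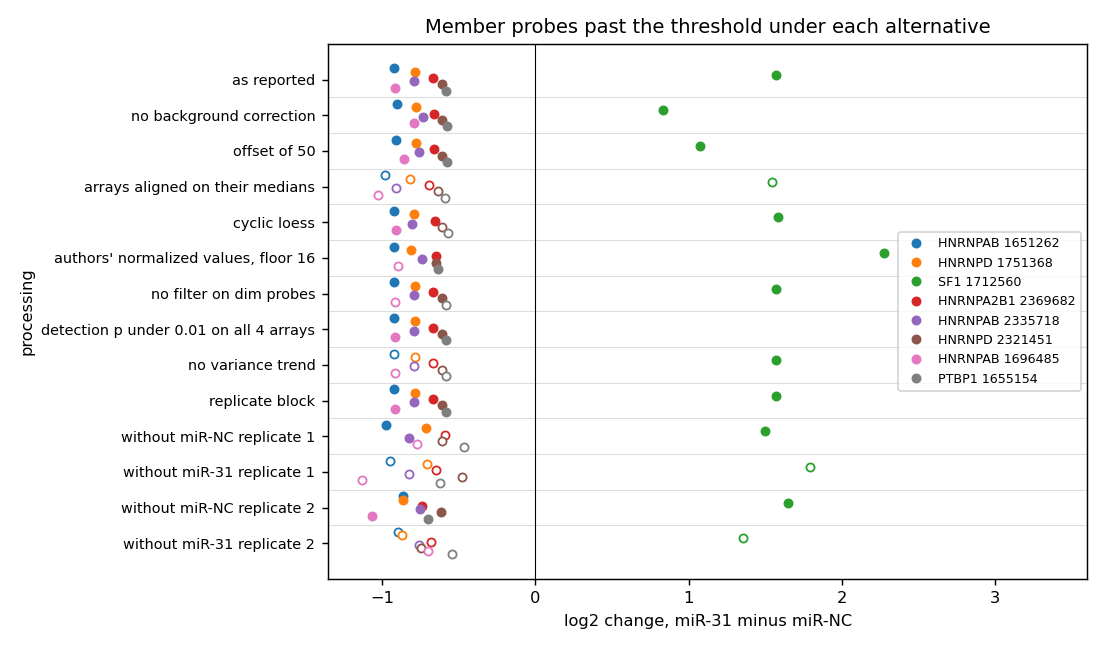
Log2 change, miR-31 minus miR-NC (horizontal axis), of the 8 member probes past the threshold, as reported and under each alternative processing (vertical axis). Filled points have an adjusted p under 0.05 and open points do not. Directions were the same in every alternative drawn, the SF1 probe being untested under the stricter filter, while all points are open with median alignment and without either miR-31 array.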

How the data were processed

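RNA of 4 samples was read on Illumina bead arrays. The signal intensity of 47231 probes was deposited without normalization, per the file headers, on a linear scale. A score beside each intensity is called a detection p-value per the file headers, but the brightest probes stood at 1, so 1 minus the deposited score was used as the detection p. Per the submitters' processing notes BeadStudio was used, with settings not given in the sources used here. A second deposited table held the authors' normalized intensity values, linear and partly at or below 0, with their normalization method not given, and served as an alternative (raised to a floor of 16, then log2).

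The neqc function of limma 3.58.1 (R 4.3.3) corrected the background from detection p-values, added an offset of 16, normalized by quantiles and took log2. Probes with detection p under 0.05 on at least 2 of 4 arrays were tested two-sided with lmFit and eBayes(trend), adjusted by Benjamini-Hochberg over 18354 probes, at 0.05. The fit left 2 residual degrees of freedom, to which the prior contributed 7.19. Differences between probes of one gene were fitted in the same way without a trend. The steps were tested on simulated data. The number of arrays limits precision.

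All 90 member probes matched a current gene by Entrez identifier. Probe levels of different genes were not compared. The members, the lists of other splicing genes and the alternatives were chosen with earlier results of these data known. Every member could be named. Values on each array were given for member probes past the threshold, the smallest p in each role group, all probes of a gene whose probes disagreed in sign with a call, and further members chosen after their values were seen. From each other list the 4 smallest p and any probe past the threshold were named.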

Additional observations from a re-analysis of the deposited data

How the results depend on the processing

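With no background correction or an offset of 50 the member counts stayed at 7 lower and 1 higher. Over all tested probes 4.09% were lower and 2.12% higher with no background correction, and 4.20% and 2.24% with the offset of 50. Lower and higher member probes numbered 5 and 1 with cyclic loess and with no filter. They numbered 6 and 1 with the authors' values, and 10 and 1 at adjusted p under 0.1. The lower and higher shares of all tested probes were 3.80% and 1.79% with cyclic loess, and 1.19% and 0.489% with no filter. Those shares were 3.14% and 1.31% with the authors' values, and 6.69% and 4.39% at adjusted p under 0.1. Member counts were 7 and 0 at detection p under 0.01 on all 4 arrays, where the SF1 probe was untested (6.03% and 3.38% of all tested probes). With median alignment member counts were 0 and 0 (0.245% and 0.332% of all tested probes). Without a variance trend they were 0 and 1, the SF1 probe (1.56% and 0.392% of all tested probes). Counted by genes they were 4 and 1 by the brightest probe, against 5.24% and 2.43% of all genes. By the mean of probes they were 3 and 0. No share over all genes is given here for the mean, so that count does not set the members apart. When each array was left out in turn, member calls depended on the array, and none remained without either miR-31 array. The median log2 change of tested member probes stayed negative. It was −0.12 without miR-NC replicate 1 and −0.16 without miR-NC replicate 2. It was −0.09 without miR-31 replicate 1 and −0.16 without miR-31 replicate 2. The medians over all tested probes were 0.01, −0.04, −0.02 and 0.00 in that order. In these fits the lone array of a group is assumed to vary like the other group. Over all probes 106 passed with median alignment, 57.5% of them higher, against 1132 and 34.0% as reported.

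The replicate number as a block gave 11 lower and 1 higher member probes, adding HNRNPA0, SF3A2, SF3B3 and HNRNPUL2, with all 8 reported calls kept. Over all tested probes calls rose to 2536 with the block (7.24% lower, 6.58% higher). No label says that a number marks a shared culture, so the block stands only as an alternative. Replicate 1 minus replicate 2 correlated at 0.22 between the groups across tested probes and at 0.39 across member probes.

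Other splicing genes counted 4 lower and 4 higher as reported. Higher probes numbered 1 with median alignment, cyclic loess and the authors' values, 2 with no filter, 0 without a variance trend, 18 with the replicate block and 10 at adjusted p under 0.1. Lower probes numbered 0 with median alignment, 1 without a variance trend, 12 with the block and 14 at adjusted p under 0.1. The shares of all tested probes under these settings are those given above with the member counts. Leaving out arrays gave 0 to 17 higher and 0 to 8 lower. Member probe pairs that differed numbered 0 to 1 when an array was left out and 1 with the block, in both cases the SF1 pair, whose control signal is near background. The HNRNPA2B1 probe ILMN_1886493 ranged from −0.000984 to 0.496 when an array was left out, reversing without miR-NC replicate 1, and no other probe followed by the naming rule changed sign. The cause of these differences between settings was not tested.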

Other observations

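Probes of 4 hnRNP pseudogenes were set aside from the members. HNRNPA1P10 read 10.77 and 11.04 in miR-NC against 10.70 and 10.64 in miR-31, below both controls by little (log2 change −0.24 ± 0.15, SE; limma adjusted p = 0.410). HNRNPA1P33 read 10.64 and 11.02 in miR-NC against 11.11 and 10.68 in miR-31, with the groups overlapping (0.07 ± 0.19; adjusted p = 0.887). HNRNPA3P1 had −0.09 ± 0.31 (adjusted p = 0.908), and the 3 probes of HNRNPKP3 were detected on no array.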
